A study of Mus musculus with 10 samples.

Results

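The cytosolic ribosomal protein genes were followed in RNA sequenced from 10 libraries of sorted mouse tumour cells. The tumours, carried as allografts in mice, were malignant peripheral nerve sheath tumours (MPNST), which are sarcomas that arise from cells of the Schwann lineage. There were 5 allograft models, A, B, C, D and E, and from each a GFP+ library and a GFP- library were made. By the series' title, GFP marks the tumour cells in which a transgene called CGD is expressed, and GFP- cells are the non-expressing ones. The labels neither spell out CGD nor name its promoter, nor do they give the strain, age or treatment of the host mice or the number of animals behind a model. Per the labels, wild-type cells and dead cells were gated out before collection, so both populations are labelled as tumour cells, and the comparison between them was planned as a paired one.

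Members were the genes that GENCODE annotates as protein-coding and whose symbol begins with Rpl or Rps and a digit, or is Rplp0, Rplp1, Rplp2 or Rpsa. Ribosomal S6 kinase genes (10), genes annotated as pseudogenes (258) and 6 protein-coding genes named as pseudogenes were left out. This gave 86 of the 46517 gene identifiers. They were 77 core proteins of the ribosome (43 of the large subunit, 3 of its stalk and 31 of the small subunit), 8 variants that resemble a core gene, and Rps19bp1, whose symbol matches but which encodes a protein that binds Rps19 and is not part of the ribosome. Fau encodes a core ribosomal protein joined to a ubiquitin-like sequence, but its symbol does not match, so it was described with the other translation genes.

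The cytosolic ribosome translates nuclear-encoded mRNA, and a mature ribosome carries most of its proteins as single copies, with the stalk proteins Rplp1 and Rplp2 in pairs. The small subunit reads the mRNA, the large subunit joins the amino acids, and the stalk, anchored by Rplp0, recruits the elongation factors. The genes lie scattered over the chromosomes, yet their mRNAs are known to be made and translated together: most begin with a C followed by a run of C and T letters, the terminal oligopyrimidine (TOP) tract, through which mTOR and Larp1 control their translation, and Myc is known to raise the output of the ribosome genes.

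The start regions of the most abundant members per kilobase of transcript that have a RefSeq entry were those of Rplp0, Rps15, Rps12 and Rpl4, and they show how unlike the letters around the annotated starts are. Their windows, on the build GRCm38.p6 and written 5′ to 3′ from 40 bases before the annotated start to 30 bases from it on, lie at chr5:115559427-115559496 (plus strand), chr10:80292391-80292460 (plus strand), chr10:23787180-23787249 (minus strand) and chr9:64173347-64173416 (plus strand). Capitals mark the longest run of C and T letters that comes within 10 bases of the start.
Rplp0: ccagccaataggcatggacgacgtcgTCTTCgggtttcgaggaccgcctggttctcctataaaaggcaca
Rps15: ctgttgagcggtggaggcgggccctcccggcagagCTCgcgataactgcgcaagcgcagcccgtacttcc
Rps12: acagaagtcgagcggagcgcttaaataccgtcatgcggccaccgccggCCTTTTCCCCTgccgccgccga
Rpl4: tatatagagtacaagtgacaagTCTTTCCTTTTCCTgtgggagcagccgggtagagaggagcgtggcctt

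Windows for Rpl35a, Rps26, Rps27 and Fau are set beside them because these genes recur in the comparisons between models, a choice made after their values were seen. They lie at chr16:33056413-33056482 (plus strand), chr10:128626477-128626546 (minus strand), chr3:90213619-90213688 (minus strand) and chr19:6057907-6057976 (plus strand), on the same build.
Rpl35a: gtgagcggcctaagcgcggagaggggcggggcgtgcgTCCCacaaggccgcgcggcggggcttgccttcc
Rps26: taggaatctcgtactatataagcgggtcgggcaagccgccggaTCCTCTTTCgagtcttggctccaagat
Rps27: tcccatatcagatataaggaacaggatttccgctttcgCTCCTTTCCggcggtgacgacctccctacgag
Fau: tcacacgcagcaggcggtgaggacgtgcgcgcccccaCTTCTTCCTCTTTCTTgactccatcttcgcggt

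RefSeq promoters were given for 66 of the 86 members. A run of at least 6 C and T letters came within 10 bases of the annotated start in 35 of them (53.0%), against 29.4% of 19214 genes with 1 RefSeq promoter. Among the 13 other translation genes with such an mRNA start and a promoter entry it was 69.2%, and among 31 ribosome biogenesis genes 22.6%. In the whole promoter of 300 bases, on either strand, the ETS motif CCGGAAG stood in 36.4% of members and 11.5% of all genes. The YY1 motif AAGATGG stood in 13.6% of members and 6.43% of all genes, and TATAAA in 9.09% of members and 12.8% of all genes. These are letters at annotated starts, which were not measured here, and say nothing of binding or of where these tumour cells begin transcription.

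The libraries held 15978673 to 22082207 reads in genes. Levels are given as CPM, read counts scaled to the same total of gene reads in each library. Of the 86 members, 82 passed edgeR's filter on low counts, 76 of them core genes. The others were Rpl3l, Rpl10l and Rpl39l, variants known from muscle and testis, and the core gene Rpl24, which had 0.103 to 0.771 CPM. In the annotation 47.0% of the exonic bases of Rpl24 are shared on the same strand with Gm28037, and reads that fit both genes are not counted for either, so its level is not measured by these tables. Reads with several genomic positions are also left out of gene counts. Every level below is therefore that of the uniquely placed reads, and genes with many processed copies are counted low.

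Ribosomal protein genes took 2.04% to 4.73% of the gene reads in GFP+ libraries and 1.63% to 4.89% in GFP- libraries. Their summed share was 3.03% ± 1.09 in GFP+ cells and 3.14% ± 1.24 in GFP- cells (SD, n = 5 each). These means average over pairs of opposite direction: the GFP+ share was 0.604 times the GFP- share in model A and 1.25 times in model B. By model, the share was 2.18% in GFP+ and 3.61% in GFP- cells in model A, 2.04% and 1.63% in model B, and 3.38% and 3.20% in model C. It was 2.81% in GFP+ and 2.36% in GFP- cells in model D and 4.73% and 4.89% in model E. GFP+ libraries held the lower share in models A and E and the higher share in models B, C and D. Reads with several genomic positions moved with this share: they made up 7.25% of reads in GFP+ and 8.78% in GFP- cells in model A, 6.96% and 5.99% in model B, and 9.69% and 9.74% in model E. Their part in the result was not tested.

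**Figure D1:**
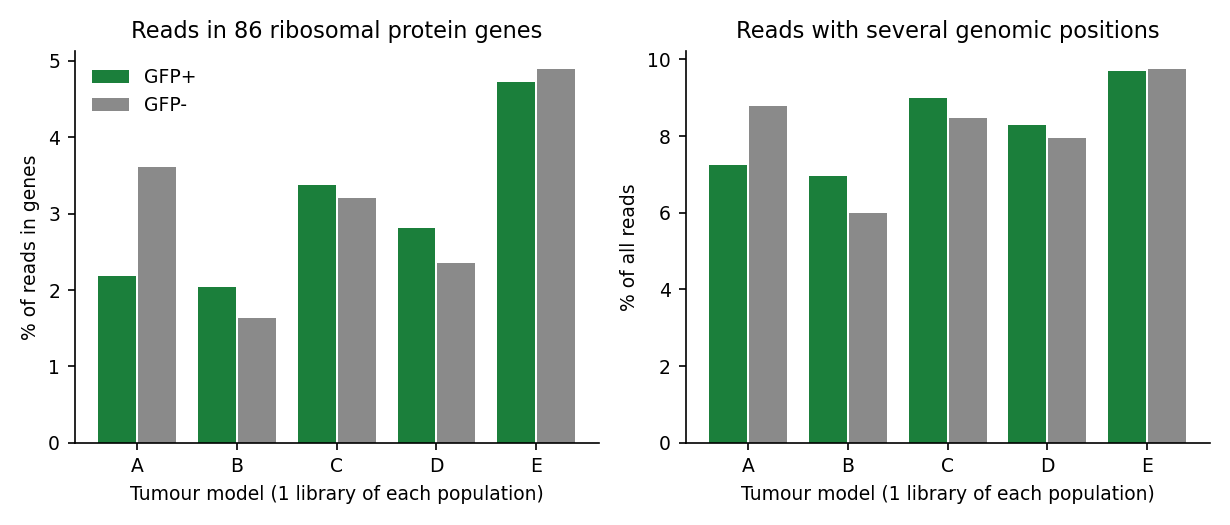
Bars give, for each tumour model and with 1 library per bar, the percent of gene reads in the 86 ribosomal protein genes (left) and the percent of all reads with several genomic positions (right), GFP+ in green and GFP- in grey. Model E was highest and GFP- cells of model B lowest in both panels, and in model A the GFP+ bar is the lower one in both (2.18% against 3.61% of gene reads).

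The levels of the members spread widely. Per kilobase of principal transcript, the core genes that passed the filter had a median of 432 CPM and ranged from 49.4 CPM for Rpl39 to 1784 CPM for Rplp1. Rplp1 was followed by Rplp0 (1535 CPM per kilobase), Rps15 (1276), Rps12 (1266) and Rpl4 (1143). The stalk genes Rplp1 and Rplp0 thus led the order, and Rplp2, also of the stalk, stood at 1021 CPM per kilobase. At the low end were Rpl10l with no read in any library, which allows up to 3 reads in each, Rpl3l (0.0383 CPM per kilobase), Rpl39l (0.232) and Rps27rt (8.80). Rpl24 stood at 0.663 by its counted reads, but its level is not measured, as said above. Rplp0 had 1586, 1479, 1970, 1886 and 3145 CPM in the GFP+ libraries of models A to E, against 2613, 1228, 1962, 1577 and 3404 CPM in the GFP- libraries. Both libraries of model E lay above the other 8, and GFP- cells of model B were lowest. Since the length of the transcript that these cells use is not measured, the order of genes of similar level is uncertain. Reads that fit another gene on the same strand are also not counted, and 13.7% of the exonic bases of Rps12 are shared in this way.

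Setting GFP+ against GFP- cells asks whether tumour cells with the transgene expressed differ from those without it in the same model. No ribosomal protein gene passed the test. In edgeR's quasi-likelihood test with the tumour model as a block, 0 of the 82 members tested had an adjusted p (Benjamini-Hochberg, over 13986 genes) under 0.05, and the smallest was 0.624. The test called 0 of 13986 genes (0% called). At an unadjusted p under 0.05 there were 0 members, against 8.99% of all genes. The fitted difference was below 0 for 64 members and above 0 for 18, with a median of -0.04 log2 units, against -0.0028 over all genes. That split rests on model A: without its pair of libraries 77 of 82 members were above 0, and the median was 0.13.

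The members with the smallest p followed this only in part. Without model A, the fitted differences of Rpl35a (-0.15), Rpl22l1 (-0.09), Rpl29, Rpl35 and Rps15 stayed below 0. Those of Rpl5, Rpl21, Rpl9, Rps29 and Rpl10a moved above 0. Rpl35a, a large subunit protein whose human gene is mutated in some families with Diamond-Blackfan anaemia, had 33.8, 76.2, 189, 83.6 and 233 CPM in the GFP+ libraries of models A to E. In the GFP- libraries it had 49.97, 88.9, 160, 110 and 244 CPM. It was lower in GFP+ cells in 4 of 5 pairs, and its fitted log2 difference was -0.23 (SE 0.12, adjusted p = 0.624, edgeR). The spread between models was several times as wide as the difference within any pair.

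Rpl22l1, the variant of the RNA-binding protein Rpl22, had 22.5, 9.48, 17.4, 12.6 and 31.3 CPM in GFP+ cells, against 28.8, 8.38, 16.4, 14.96 and 36.8 CPM in GFP- cells of models A to E. Its log2 difference was -0.15 (SE 0.11, adjusted p = 0.733, edgeR), with models B and C above 0. Rpl5, which with Rpl11 binds Mdm2 when ribosome assembly is disturbed, had 201, 182, 291, 260 and 437 CPM in GFP+ cells, against 349, 166, 266, 258 and 467 CPM in GFP- cells. Only in model A did its populations lie far apart, at a log2 difference of -0.83 in that pair.

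The other members among the 10 smallest p below 0 were Rpl29, Rpl35, Rps15, Rpl21, Rpl9, Rps29 and Rpl10a, with fitted log2 differences of -0.11 to -0.18. On the higher side stood Rps19bp1, with 18.5, 21.7, 19.2, 22.8 and 16.0 CPM in GFP+ cells, against 21.9, 17.1, 14.4, 16.9 and 12.8 CPM in GFP- cells. Its log2 difference was 0.22 (SE 0.13, adjusted p = 0.646, edgeR), above 0 in 4 of 5 pairs. Rpl8, a protein near the centre where peptide bonds form, was at 0.13 (SE 0.19), Rpl30 at 0.07 (SE 0.15) and the variant Rpl7l1 at 0.03 (SE 0.083). Well-known members did not pass either: edgeR's adjusted p was 0.997 for Rps6, the target of the S6 kinases, 0.975 for Rps19, 0.998 for Rpl11 and 0.981 for Rpsa, which is also known as a laminin receptor.

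Within pairs, most members lay on the same side of 0 in models A to D and on both sides in model E. With 1 library of each population per model there is no test within a pair, and bulk RNA cannot tell fewer cells with these transcripts from less transcript per cell. In model A each of the 82 members tested was lower in GFP+ cells, and their median difference was -0.75 on the log2 scale. Of these, 70 were at least 1.5-fold lower and 0 at least 1.5-fold higher, against 6.96% of 13986 genes lower and 10.3% higher by that much. In model B 78 members were higher in GFP+ cells and the median was 0.23, with 3 at least 1.5-fold higher (background 11.8%). Model D had 77 members higher, a median of 0.21 and 1 member past 1.5-fold (background 9.04%). Model C had 65 members higher with a median of 0.09 and 1 member at least 1.5-fold lower (backgrounds 4.83% lower and 6.54% higher), and model E had 50 members lower with a median of -0.04 and none past 1.5-fold (backgrounds 3.71% lower and 11.3% higher). The median over all genes lay between -0.0068 and 0.024 in these pairs.

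Large subunit, small subunit and stalk genes had similar medians within a pair. In model A their medians were -0.72, -0.77 and -0.75 log2 units, and in model B 0.21, 0.25 and 0.20. The members farthest from 0 in model A were Rps27rt (-1.04), a retrogene of Rps27 with few reads, and Rpl21 (-0.98), and the nearest was Rpl7l1 (-0.16). No member was higher in GFP+ cells in all 5 pairs or lower in all 5: 41 were higher in 3 pairs, 27 in 4, 13 in 2 and 1 in 1. These counts compared CPM directly, whereas the pair differences above also carry edgeR's scaling between libraries.

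**Figure D2:**
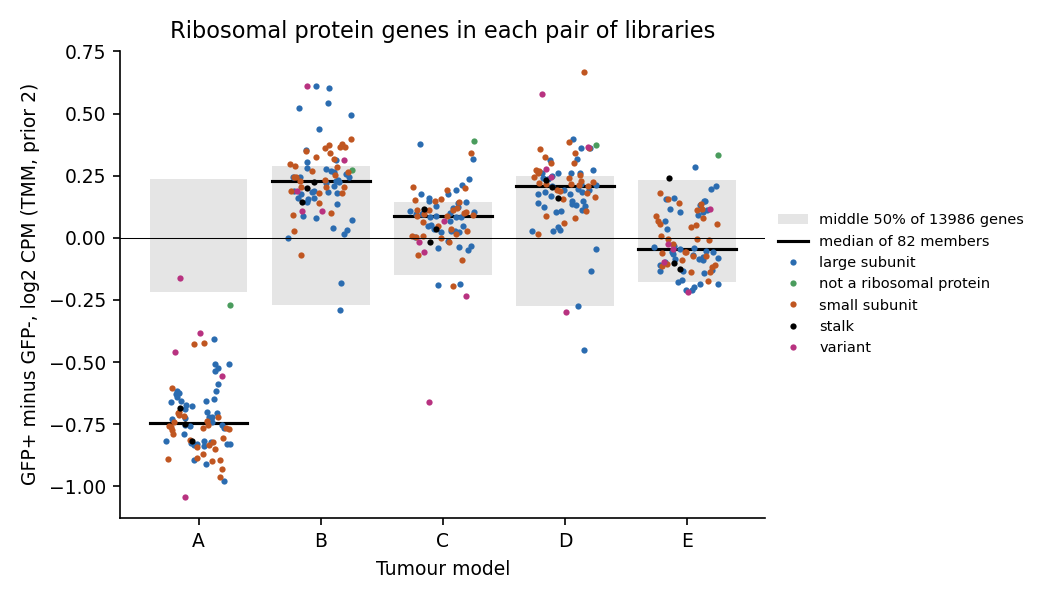
Each point is 1 of 82 members, placed by its GFP+ minus GFP- difference in log2 CPM in the pair of libraries of 1 tumour model (x axis), and coloured by class. Grey boxes span the middle 50% of 13986 genes and black lines the members' median. In model A the 82 points lie below 0 around a median of -0.75, and in the other models they lie within or near the grey boxes.

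The medians of cell cycle genes lay above 0 in each model. Of 20 mitosis genes, 20 had fitted differences above 0 in GFP+ cells, with a median of 0.78 log2 units and 17 at an unadjusted p under 0.05, though edgeR's test called 0. Their medians per pair were 0.16, 1.65, 0.46, 1.23 and 0.50 in models A to E, with model A lowest and models D and B highest, as for the ribosomal protein genes. Top2a, the topoisomerase of dividing cells, stood at 1.18 (SE 0.28, adjusted p = 0.363), and Mki67, the proliferation antigen, at 0.67 (SE 0.25, adjusted p = 0.484). Genes induced by tissue dissociation, such as Fos and Jun, had pair medians of -0.19, -0.03, -0.52, -1.03 and 0.57. The part of either list in the ribosomal differences was not tested.

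Averaged over the 5 pairs, the populations differed far less in the level of ribosomal protein genes than the tumour models did. Single pairs could differ as much as some models: the GFP+ share was 0.604 times the GFP- share in model A. Model D had 1.41 times the mean share of model B. In the joint edgeR test of the 4 model terms, 75 of 82 members (74 of 76 core genes) had an adjusted p under 0.05, against 54.7% of 13986 genes called. Mean shares of gene reads were 1.84% in model B, 2.59% in D, 2.89% in A, 3.29% in C and 4.81% in E, so that model E carried 2.62 times the share of model B. Of the 82 members, 74 were highest in model E and 76 lowest in model B. Both libraries of model E lay above the other 8 libraries for 66 members, and both of model B below the others for 35. The same counts were not made over all genes, so they do not show that this order is particular to the members. The median fold between the highest and lowest model was 2.50 among the members, with a range of 1.40 to 5.70, against 1.93 over all genes. Both libraries of a model come from the same tumour model, so this test sets the models apart from one another by the spread within pairs and does not compare separate tumours. The members' count rests largely on models E and B. Without model E, 14 of 82 members (17.1%) were called, against 38.2% of 14140 genes, so their share then lay below the background. Without model B it was 45 of 82 members (54.9%), against 48.2% of 13941 genes.

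**Figure D3:**
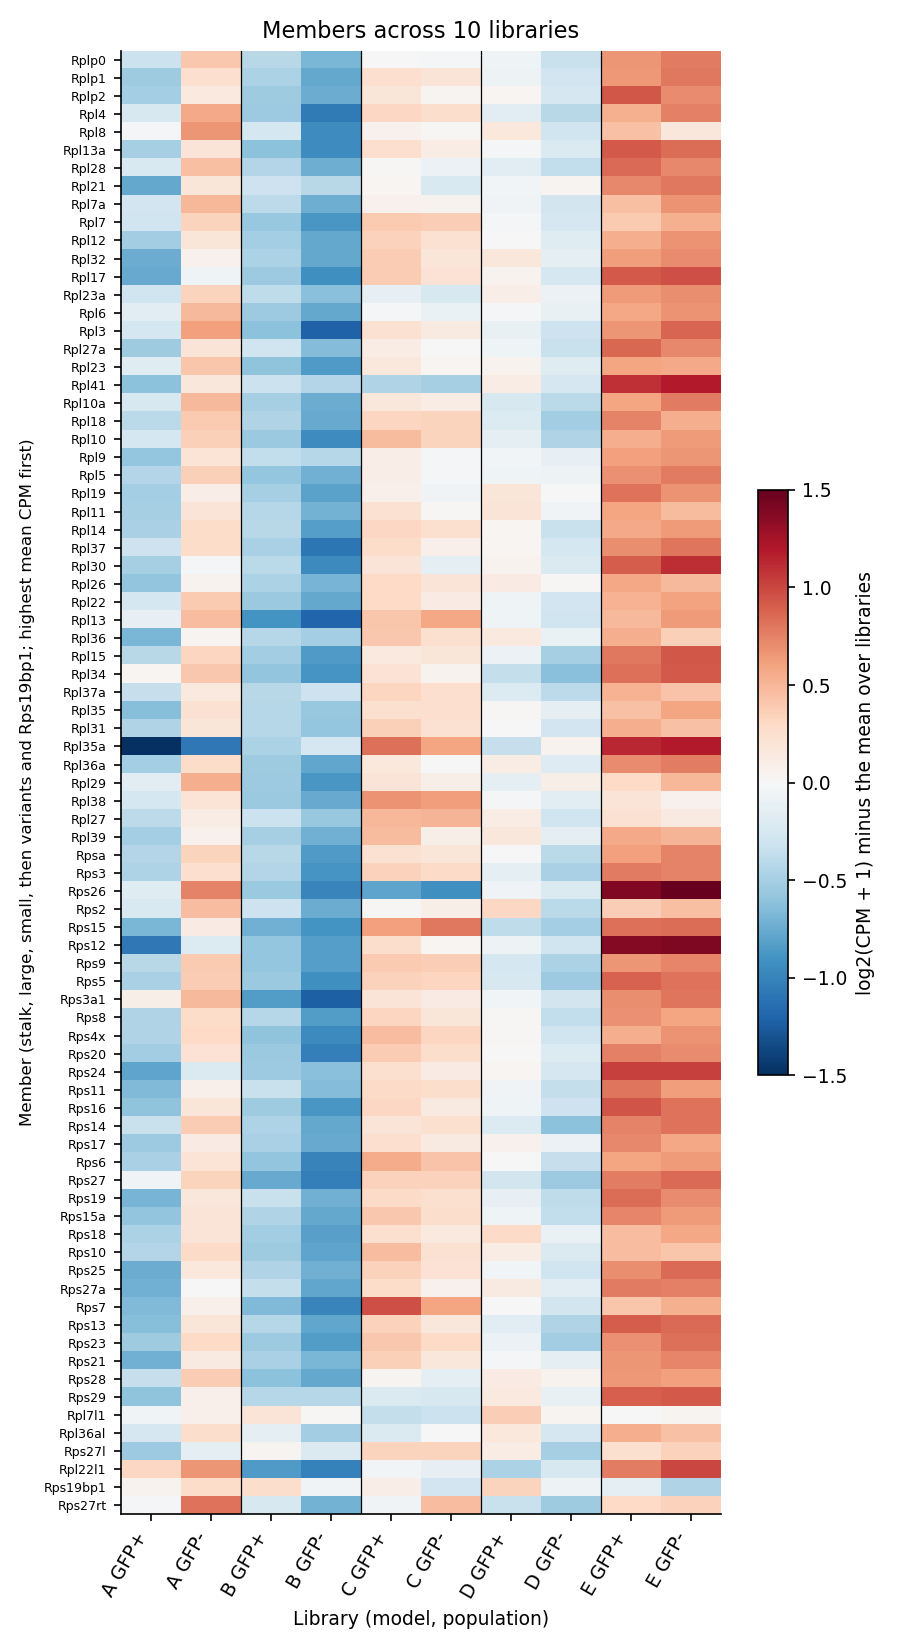
Rows are members that passed the filter and columns the 10 libraries, GFP+ left of GFP- in each model. Colour gives log2(CPM + 1) minus the member's mean over libraries, red above and blue below it. Columns of model E are red for nearly every row, GFP- cells of model B are the bluest column, and in model A the GFP+ column is bluer than the GFP- column.

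Rpl35a had the largest F statistic between models (50.3, adjusted p = 0.000787, edgeR). With the CPM given above, model A had the lowest level in both populations and model E the highest, 5.70-fold apart in their means. Rpl22l1 (F = 37.2), Rps27 (29.6), Rpl34 (29.3) and Rps24 (23.9) came next. Rps27, a zinc finger protein of the small subunit, had 225, 139, 299, 194 and 398 CPM in GFP+ cells, against 296, 115, 298, 161 and 422 CPM in GFP- cells of models A to E. Models E and B stood at its 2 ends, and the populations lay farthest apart in model A, at a log2 difference of -0.42 in that pair. Rps24 had 197, 236, 405, 349 and 697 CPM in GFP+ cells, against 295, 221, 374, 289 and 701 CPM in GFP- cells. Without model E its adjusted p was 0.0651.

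The 5 members with the smallest F between models were Rps19bp1 (1.79), Rps2 (2.67), Rps27rt (3.27), Rpl8 (3.30) and Rps27l (3.85), with adjusted p of 0.270, 0.154, 0.110, 0.108 and 0.083. Rps2, a small subunit protein at the mRNA entry, had 570, 538, 680, 832 and 863 CPM in GFP+ cells, against 921, 398, 711, 505 and 918 CPM in GFP- cells. Its populations lay apart in models A and D in opposite directions. Leaving out model A brought Rps2 (adjusted p = 0.0383) and Rpl8 (0.0183) under the threshold, and leaving out model D did so for Rps27l (0.0376). DESeq2 on the 10 libraries also called the 3 genes, with adjusted p of 0.0426 for Rps2, 0.0142 for Rpl8 and 0.0453 for Rps27l, and edgeR without a filter called Rpl8 (0.0441).

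To see which members moved apart from the rest, the libraries were also scaled on the summed reads of the core ribosomal protein genes, a step chosen after the data were seen. With that scaling 0 members differed between GFP+ and GFP- cells (background 0.0143%). The median SD of pair differences among core genes was 0.105 log2 units, against 0.420 with the usual scaling. The scaling divides by the core members' own reads, so the smaller spread and the fewer member calls follow from the step itself. Between models 10 members were called, against 74.2% of all genes. Among them were the core genes Rps26, Rpl35a, Rps12, Rpl41, Rps7 and Rpl38, the variants Rpl7l1 and Rps27l, and Rps19bp1. The scaling moved the median GFP+ minus GFP- difference of all genes by 0.05 log2 units. Between models it weighs more, since the core genes' share in model E was 2.63 times that in model B. The 74.2% of all genes called with this scaling, against 54.7% with the usual one, is therefore shaped by the step too.

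Rps26, a small subunit protein at the mRNA exit that is also mutated in human Diamond-Blackfan anaemia, led these (F = 11.4, adjusted p = 0.00209, edgeR). It had 514, 398, 337, 564 and 1531 CPM in GFP+ cells, against 981, 293, 310, 504 and 1743 CPM in GFP- cells of models A to E. Relative to the core genes it lay at -1.03 log2 units from its own mean in model C and at 0.76 in model E. Rpl35a lay at -1.31 in model A and between 0.03 and 0.53 in the other models. Rps12, whose fly counterpart is known from cell competition, had 252, 353, 634, 504 and 1378 CPM in GFP+ cells, against 460, 298, 543, 429 and 1399 CPM in GFP- cells. Relative to the core genes it lay at -0.59 in model A and 0.66 in model E.

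Rpl41, the shortest ribosomal protein, lay at -0.65 in model C and 0.42 in model E. Rps7 lay at 0.60 and Rpl38, known in mice for its part in translating Hox mRNAs, at 0.48 in model C, and Rpl38 at -0.60 in model E. Rps19bp1 and Rpl7l1 lay at 0.78 each in model B, where the core genes are lowest, and at -1.04 and -0.70 in model E. On this scale a gene whose CPM stays level takes such values because the core genes vary: the model means of Rpl7l1 were 66.0, 70.6, 51.6, 76.1 and 66.7 CPM in A to E, and neither gene was called between models with the usual scaling. Model E libraries were thus the high end for Rps26, Rps12 and Rpl41, and model C libraries the low end for Rps26 and Rpl41.

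**Figure D4:**
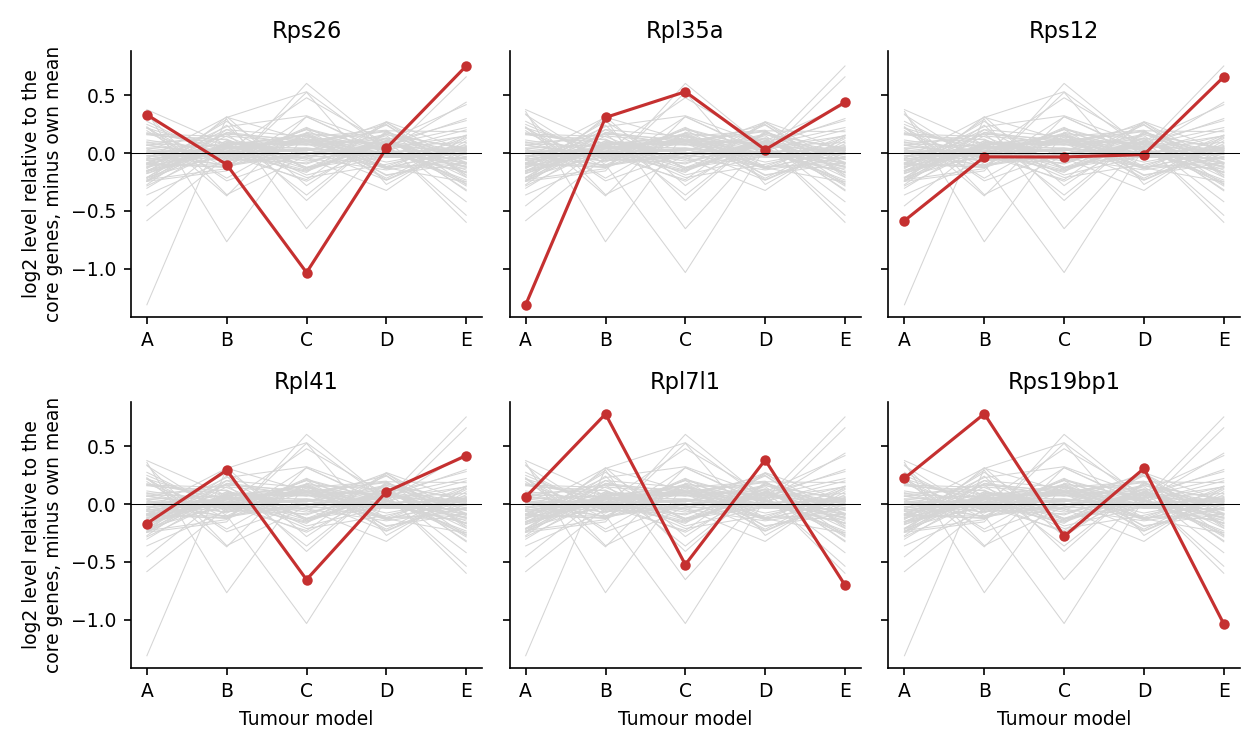
Each panel gives 1 member in red, as the mean log2 level of a model's 2 libraries relative to the summed core ribosomal protein genes, minus the member's own mean over models (y axis), for models A to E (x axis). Grey lines are the other core genes. Rpl35a dips to -1.31 in model A and Rps26 to -1.03 in model C, while most grey lines stay near 0.

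Across the 10 libraries the core genes rose and fell together. As a description, with libraries of a model sharing a tumour and CPM sharing 1 total, each core gene's log2 CPM had a median Pearson r of 0.959 with the mean of the other core genes (range 0.672 to 0.996), and 65 of 76 were over 0.9. Rplp1 was the most alike (0.996) and Rpl35a the least alike core gene (0.672). Of 13904 other tested genes 178 were over 0.9, and their median was 0.025. The 10 genes most alike were Fau (0.990), Eif3m, Eef1b2, Trmt112, Rps23-ps1, Clybl, Eif3k, 2410006H16Rik, Rack1 and Atp5a1 (0.977). Rps23-ps1 is a processed pseudogene of a member, so reads of the 2 may be exchanged. Among the members, Rpl7l1 (-0.15) and Rps19bp1 (-0.42) had r below 0.

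Variants that resemble a core gene were compared with that gene, here called the parent, by the log2 ratio of the 2 genes within a library. For 5 variants with at least 10 reads in every library, the differences of the 5 pairs were tested by exact sign flips (two-sided), a design whose smallest possible p is above 0.05. The mean GFP+ minus GFP- difference of the ratio was -0.09 ± 0.28 (SD, n = 5 pairs, exact p = 0.562, adjusted 0.703) for Rpl22l1 to Rpl22. It was 0.06 ± 0.17 for Rps27l, a known Trp53 target, to Rps27 (exact p = 1 over 5 pairs). Rpl36al to Rpl36a gave 0.06 ± 0.24, Rpl7l1 to Rpl7 gave 0.10 ± 0.25 and Rps27rt to Rps27 gave -0.16 ± 0.46, with exact p of 0.562, 0.5 and 0.5. Adjusted over the 5 ratios, the p-values ran from 0.703 to 1. No ratio shifted beyond its spread between pairs, and none could have passed 0.05 in a design of this size.

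The ratios themselves differed between models. The log2 ratio of Rps27l to Rps27 was -2.60 in GFP+ cells and -2.58 in GFP- cells in model B, where it was highest, and -3.90 and -3.87 in model A. That of Rpl22l1 to Rpl22 was -3.12 in GFP+ cells and -3.42 in GFP- cells in model A, and -4.07 and -4.03 in model B. These values describe the libraries and were not tested. Genes with near-identical copies share reads, so each ratio holds for uniquely placed reads.

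Other genes of the translation machinery were taken as lists chosen with earlier results of these data known. Of 19 further translation genes whose mRNAs are known to start with a C and T run, 8 had fitted differences above 0 and 11 below 0 in GFP+ cells, 0 passed, and the median was -0.02. Their pair medians were -0.72, 0.43, 0.06, 0.23 and -0.13 in models A to E, and 84.2% of them were called between models (background 54.7%). Eef1a1, which brings aminoacyl-tRNA to the ribosome, had 4812, 4051, 8712, 5610 and 8980 CPM in GFP+ cells, against 7951, 2944, 8512, 4618 and 11064 CPM in GFP- cells. The translocase Eef2 differed by -0.10 (SE 0.18), Tpt1 by -0.13 (SE 0.16), and Rack1, a scaffold on the small subunit, by -0.03 (SE 0.17), each on the log2 scale. Fau had 155, 144, 275, 210 and 424 CPM in GFP+ cells, against 244, 118, 246, 172 and 462 CPM in GFP- cells. As for most members, model E was highest and GFP- cells of model B lowest.

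Of 38 ribosome biogenesis genes, 30 had fitted differences above 0 and 8 below 0, with 0 passing and a median of 0.06. Their pair medians were -0.31, 0.31, 0.05, 0.36 and -0.13, and 57.9% were called between models, near the background of 54.7%. Npm1, a chaperone of the nucleolus, had 689, 579, 740, 851 and 1371 CPM in GFP+ cells, against 1114, 318, 631, 648 and 1578 CPM in GFP- cells. Ncl, the nucleolar protein nucleolin, differed by 0.09 (SE 0.19), and Brix1, an assembly factor of the large subunit, had the smallest p of the list at 0.26 (adjusted p = 0.574, edgeR). In model A both Npm1 and Ncl were lower in GFP+ cells, as the members were.

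Of 24 initiation factors, 17 had values above 0 and 0 passed (median 0.02), with pair medians of -0.27, 0.18, 0.0058, 0.31 and -0.07. The 12 tested genes of RNA polymerase I and its factors had 5 above 0 and a median of -0.02. For the 77 tested genes of the mitochondrial ribosome, a separate machine that translates the mitochondrial genome, 42 were above 0 and 35 below, with a median of 0.0041. Their pair median in model A was -0.29, and 39.0% were called between models (background 54.7%). The 6 tested host genes of small nucleolar RNAs, whose mRNAs also begin with a C and T run in known cases such as Gas5, had pair medians of -0.55, 0.27, 0.29, 0.25 and -0.21.

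**Figure D5:**
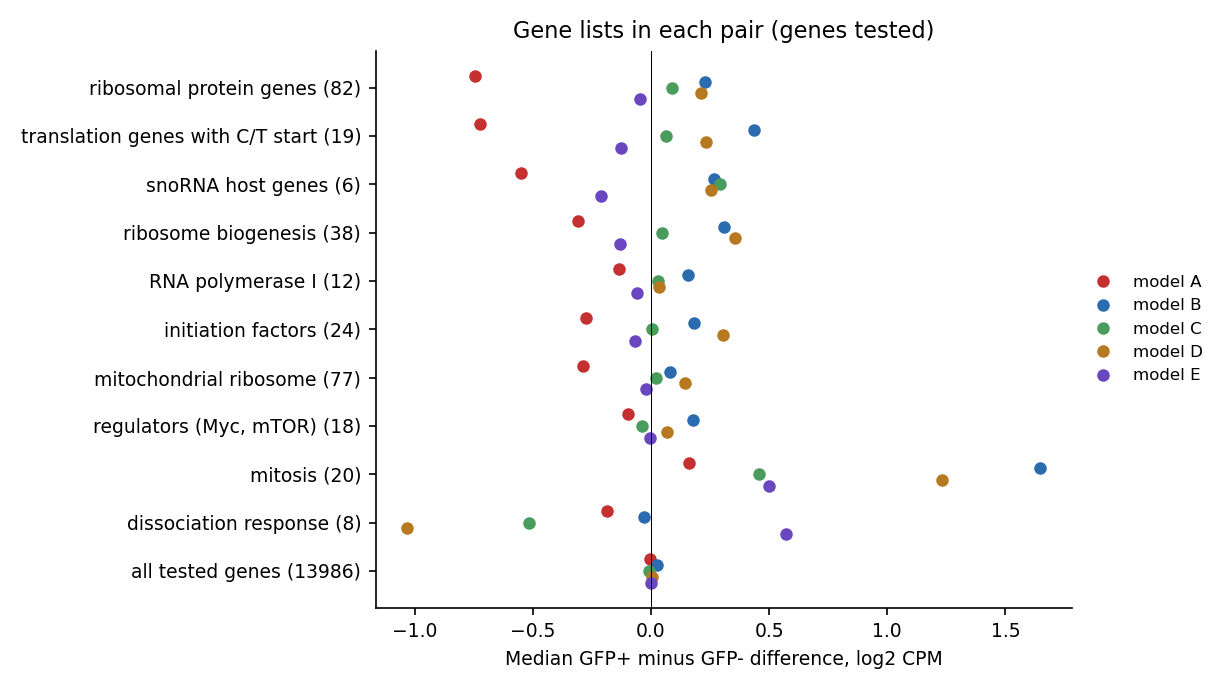
Rows are gene lists with the number of tested genes, and each point is the list's median GFP+ minus GFP- difference in log2 CPM in 1 model's pair of libraries, coloured by model. Ribosomal protein genes and other translation genes lie at -0.75 and -0.72 in model A, ribosome biogenesis genes at -0.31, and mitosis genes lie above 0 in the 5 models.

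Known regulators of these genes were described as well. Myc had 409, 284, 257, 304 and 1762 CPM in GFP+ cells, against 729, 101, 237, 292 and 1449 CPM in GFP- cells of models A to E. Model E was highest and GFP- cells of model B lowest for Myc too, and in model A it was lower in GFP+ cells (log2 difference -0.86). Its fitted difference between populations was 0.19 (SE 0.28, adjusted p = 0.898, edgeR). Mycn was at 0.325 to 5.48 CPM over the libraries. Of the 18 regulators tested, 0 passed, and the smallest p belonged to Gabpa, a factor of the ETS family, at -0.27 (adjusted p = 0.393, edgeR), followed by Mnt (-0.21, adjusted p = 0.480). The pair medians of the 18 were -0.10, 0.18, -0.04, 0.07 and -0.0047 in models A to E, so as a list they lay nearer 0 in model A than the members did. The part of Myc or of the other regulators in the ribosomal differences was not tested.

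Markers of Schwann cells and of other cell types were read beside these results. The 6 Schwann cell markers summed to 2.89 to 235 CPM in GFP+ libraries and 2.47 to 15.9 CPM in GFP- libraries. Of these, 5 were tested, and 5 had fitted differences above 0 in GFP+ cells, with a median of 2.24 log2 units, though edgeR's test called 0. In the pair of model A 3 were higher and 2 lower in GFP+ cells, and in model E 4 were higher and 1 lower. Sox10, which specifies the Schwann lineage, reached 0.111 CPM (GFP+) and 0.0514 CPM (GFP-) in model A. In model E it reached 0.434 and 0 CPM, so in these 2 models this marker was at or near 0. The 5 fibroblast markers summed to 16075 to 28991 CPM in GFP+ and 15987 to 31356 CPM in GFP- libraries. Those of leukocytes stood at 8.58 to 16.5 CPM in GFP+ and 7.60 to 20.8 CPM in GFP- libraries, with Ptprc at 0 to 0.453 CPM over the 10. Endothelial markers reached at most 3.19 CPM and erythroid markers 1.19 CPM. The part of these markers in the ribosomal differences was not tested.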

How the data were processed

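RNA of 10 libraries was analysed, 1 of GFP+ and 1 of GFP- cells from each of 5 tumour models. The authors deposited raw read counts per gene in the layout of STAR's gene counts; STAR 2.4.2.8 and the build mm10 are named in the submitters' processing notes. The sources used here do not give the annotation, kit or strand setting. Counts of the second stranded column were taken, since it holds 96.9% to 97.1% of stranded gene reads. The 4 summary lines (21.3% to 24.3% of reads, 5.99% to 9.74% with several positions) were left out of library sizes. Symbols, classes and lengths (shortest principal transcript) came from GENCODE vM21 (46005 identifiers matched, 512 did not), and promoters from RefSeq, GRCm38.p6.

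The test was edgeR 4.0.16 in R 4.3.3 (TMM, filterByExpr, 13986 genes, glmQLFit and glmQLFTest, model and population as terms, adjusted p under 0.05, two-sided). SE was derived from F. Pair differences used log2 CPM with a prior count of 2. The letters pair the samples, because libraries with the same letter come from the same model; deviations from population means correlated at 0.628 to 0.867 within pairs. P-values of the population comparison measure the spread of pair differences between 5 models, and those between models the spread within pairs. The pipeline was tested on simulated data. Ribosomal protein genes, lists and the naming rule were chosen with earlier results of these data known. The rule named the members with the 10 smallest p in each direction (of the higher ones the first 4 are described), the variants and their parents, the 5 highest and lowest per kilobase, the 5 largest and smallest F between models, 8 well-known members and the 3 smallest p of each list; others were named after their values were seen. A few of the genes named by this rule are left out of the text. Alternatives were other scalings (RLE, library totals, TMM without ribosomal, mitochondrial and haemoglobin genes), no filter or at least 1 CPM in 5 libraries, unstranded counts, DESeq2 1.42.0, limma 3.58.1 voom, no block, other prior counts (0.5 and 5) and leaving out each model. Scaling on core ribosomal protein genes was added after seeing the data.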

Additional observations from a re-analysis of the deposited data

Results flagged for a closer look

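Groups of 5 libraries were screened for a sample that stands apart, and 6 of 84 groups were flagged, where chance flags about 1 in 20 groups. Of the 6, 5 concerned a library of model E and 1 a library of model C, each set against the other models of its population. In GFP+ cells, Rps26 stood at 1531 CPM in model E, against 337 to 564 CPM in the other 4 models, and the summed level of the 38 ribosome biogenesis genes at 5890 CPM in model E, against 3834 to 4409 CPM. In GFP- cells of model E, Rps12 stood at 1399 CPM (298 to 543 CPM in the other models), Rpl30 at 468 CPM (111 to 214 CPM) and Rps29 at 242 CPM (94.6 to 135 CPM). Rpl7l1 stood apart on the low side, at 52.2 CPM in GFP- cells of model C, against 66.3 to 69.0 CPM in the others.

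The pairs also differed in direction. The members' median log2 difference of GFP+ minus GFP- cells was -0.75 in model A, against -0.04 to 0.23 in the other 4 models, and each of the 82 members tested was lower in GFP+ cells of model A while 78 were higher in model B. With 1 library of each population per model, this difference between models was not tested.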

How the results depend on the processing

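Of 108 alternative values of the main results, 15 changed a call or moved a count by over 1.5 times, and of 385 values for single genes and ratios 23 changed sign or call. The members' median log2 difference (-0.04) carries no test, and was below 0 in 13 of 15 alternatives and above 0 without model A (0.13) and when scaled on core ribosomal protein genes (0.014). Members called between GFP+ and GFP- cells stayed at 0 in each alternative run. Genes called between populations were 0 with edgeR, 47 without a filter, 195 with DESeq2 and 2 when scaled on core ribosomal protein genes. Members above 0 in GFP+ cells were 18 of 82, but 39 with library totals only, 11 without a filter, 37 with limma voom, 49 when scaled on core ribosomal protein genes, and 3 (without model D) to 77 (without model A) when a model was left out. Without the replicate block (an unpaired fit), 19 members were above 0, their median was -0.04 and 0 genes were called. Members called between models were 75, but 10 when scaled on core ribosomal protein genes and 14 (without E, where 5404 of 14140 genes were called) to 79 (without A, 7545 of 14095 genes) when a model was left out, and 80 with DESeq2 (8398 genes). Genes called between models were 7655, and 4038 (without C) to 7545 (without A). Leaving out a model turned the sign of some log2 differences: those of Rpl5 ranged from -0.22 to 0.0074, Rpl21 from -0.28 to 0.014, Rpl9 from -0.21 to 0.018, Rps29 from -0.19 to 0.032, Rpl10a from -0.20 to 0.030, Rpl30 from -0.039 to 0.20 and Rpl7l1 from -0.033 to 0.070, and those of the ratios of Rpl22l1 to Rpl22 from -0.19 to 0.0056 and of Rps27l to Rps27 from -0.020 to 0.080. Leaving out a model takes away 2 libraries; otherwise the cause was not tested. Depth limits Rps27rt (29 to 120 reads), Rpl39l (0 to 9), Rpl3l (0 to 2), and Rpl10l (0).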

Other observations

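Rps4l, a retrogene copy related to the small subunit gene Rps4x that GENCODE vM21 annotates as a transcribed processed pseudogene and that is therefore not a member, differed between models by far more than any member did. It had 1, 2945, 168, 569 and 68 reads in GFP+ libraries of models A to E, against 1, 2451, 193, 703 and 16 reads in GFP- libraries, or 0.0556, 157, 9.12, 31.2 and 3.28 CPM in GFP+ cells and 0.0514, 111, 10.6, 44.0 and 0.868 CPM in GFP- cells. Its log2 ratio to Rps4x was -0.48 in GFP+ cells and -0.62 in GFP- cells in model B, and -10.5 and -11.3 in model A. The F statistic between models was 87.2 (adjusted p = 0.000407, edgeR), while GFP+ and GFP- cells differed by 0.19 log2 units (SE 0.30, adjusted p = 0.907, edgeR). Rps4l was singled out after its values were seen, and its counts hold for uniquely placed reads.

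Genes whose log2 CPM ran opposite to the core ribosomal protein genes over the 10 libraries were led by Hs6st1, a sulfotransferase of heparan sulfate (Pearson r = -0.974), Zfp651 (-0.971), the selenoprotein gene Selenon (-0.970), the antisense gene Gm12454 (-0.969) and Anxa8, an annexin (-0.965). These were chosen by their values among 13904 genes and carry no test.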
